A study of Homo sapiens with 6 samples.

Results

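The 10 genes described here belong to the Hippo pathway and its transcriptional output, and were measured in Hs766T, a cell line established from a metastasis of a human pancreatic ductal adenocarcinoma. They were picked by symbol from the 58302 genes of the deposited expression table, and all 10 were found. Of these, 6 are targets of YAP and TEAD: CYR61, CTGF, THBS1, AXL, AMOTL2 and AJUBA. The other 4 belong to the machinery itself: the coactivators YAP1 and WWTR1 (which encodes TAZ), their DNA-binding partner TEAD1, and the inhibitory kinase LATS2, which is a YAP target as well. The set was drawn up when results of the same comparison, among them the difference in CYR61, were already known. Their differences between the groups are therefore a description and carry no test. CYR61 and CTGF are the older symbols that the table uses for CCN1 and CCN2.

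In the Hippo pathway, kinases of the MST and LATS families phosphorylate YAP and TAZ, which are then kept in the cytoplasm or degraded. When the kinases are less active, for instance in spread cells under tension, YAP and TAZ enter the nucleus and activate genes through the TEAD factors, which bind DNA and do not activate strongly alone. Several of the genes switched on in this way, such as LATS2 and AMOTL2, restrain YAP in turn. YAP is known for promoting the growth of pancreatic ductal tumours. The activity of the pathway is set largely by phosphorylation and location of the proteins, which RNA levels do not show.

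The study asked what high expression of DDX18, an RNA helicase of ribosome assembly, does to other genes of these cells. There were 3 libraries of Hs766T cells overexpressing DDX18, labelled with the genotype ex-DDX18, and 3 libraries of control Hs766T cells, titled plvx and labelled with the genotype WT. Both groups carry the cell line label Hs766T, although the sample titles spell it HS7666T, and whether the DDX18 cells are a pool or 1 clone is not given in the sources used here. Nothing states that the 3 libraries of a group came from separate cultures, so the spread between them may be technical. Total counts lay between 15911875 and 16207995 per library. At this depth the counting error of the 10 genes was small, with a Poisson coefficient of variation of 1.28% for CYR61 to 3.53% for LATS2. Levels are given as CPM, counts scaled to a common library size after TMM normalisation. The control library with replicate number 2 had the most genes with a count, 23286 against 22132 to 22353 in the other 5. DDX18 itself was at 187.1 ± 10.2 CPM in the overexpressing libraries and 90.0 ± 7.98 CPM in the controls (SD, n = 3), in the direction of the labels.

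The cells carried the keratins of a ductal epithelium in part. KRT8, KRT18 and KRT7 were abundant in both groups, with KRT8 at 2057 ± 350 CPM with DDX18 against 1993 ± 255 CPM in controls. KRT18 was at 855.8 ± 53.1 CPM with DDX18 against 1046 ± 207 CPM in controls (edgeR adjusted p = 0.86). KRT19, a defining ductal keratin, had at most 4 counts in any library, and the epithelial adhesion molecule EPCAM was at 5.39 ± 1.08 CPM and 7.05 ± 1.00 CPM. CYR61, CTGF, THBS1 and AXL are also strongly expressed by fibroblasts, so fibroblast genes were looked at beside them. Of 9 fibroblast markers, COL1A2 and PDGFRA were at 0 counts in every library, and LUM, COL3A1 and FAP had at most 8 counts. The other 4 could be tested. Of these, 0 were called by edgeR, which called 0.0528% of all genes tested, and 0 by DESeq2 or limma-voom. In edgeR 2 of the 4 had an unadjusted p under 0.05, as had 5.69% of all genes tested. The 2 were COL1A1, at 55.1 ± 3.17 CPM with DDX18 against 66.8 ± 4.39 CPM in controls, and PDGFRB, at 105.0 ± 2.27 CPM and 91.6 ± 4.15 CPM, with opposite signs. Their part in the differences of the 10 genes was not tested. The summed level of the 9 markers was 169.0 to 174.4 CPM in the DDX18 libraries and 163.6 to 175.1 CPM in the controls. Most of this sum came from COL1A1 and PDGFRB, whose opposite differences offset each other in it, so similar sums do not show unchanged markers. Markers of endothelial cells summed to at most 7.74 CPM and those of immune cells to at most 6.22 CPM in any library. In bulk RNA a change in the number of cells that express a gene and a change in RNA per cell cannot be told apart.

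TEAD factors recognise the sequence GGAATG, read CATTCC on the other strand, and the promoters of the genes were searched for it. RefSeq promoters on GRCh38.p14, which run from 250 bases before to 50 bases after a transcript start, were found for 8 of the 10 genes (12 promoters), all but CYR61 and TEAD1. The motif lay in 7 of the 12 promoters (58.3%), belonging to 7 of the 8 genes. Among all 35116 promoters in the same table, 14.0% held it. Of the 17 other YAP targets chosen for comparison, 13 had a promoter there, and 5 of those 13 (38.5%) held the motif: ANKRD1, FOXF2, NUAK2, PTPN14 and TGFB2. It was in 4 of 25 promoters of Hippo kinases and scaffolds, and in 4 of 20 of partners and paralogues of the targets. Junction, polarity and LIM genes had it in 1 of 16 promoters, and TEAD factors and cofactors in 1 of 11. These matches are descriptions of sequence and do not show binding.

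CTGF stood out by the number of its motifs. Its window held 3 copies of GGAATG in the same orientation, first bases at positions -169, -104 and -95 from the transcript start, the last 2 copies separated by 3 bases. Only 45 of the 35116 promoters (0.128%) held 3 or more copies. The 250 bases before the start are shown because all 3 copies lie there, and each line below gives the strand of the gene from 5′ to 3′, with the motif in capitals. AXL, AMOTL2 and AJUBA each have 2 starts in the table, and in all 3 genes the motif lay before the downstream start and not at the upstream one. Their 60-base windows are shown beside those of THBS1 and YAP1, so that the orientation and surroundings of the motif can be compared.
CTGF, chr6:131951373-131951622, minus strand: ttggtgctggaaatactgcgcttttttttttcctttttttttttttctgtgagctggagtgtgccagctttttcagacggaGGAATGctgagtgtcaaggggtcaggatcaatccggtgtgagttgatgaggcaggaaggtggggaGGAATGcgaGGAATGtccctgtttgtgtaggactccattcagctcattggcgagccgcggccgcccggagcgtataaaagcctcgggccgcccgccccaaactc
THBS1, chr15:39581006-39581065, plus strand: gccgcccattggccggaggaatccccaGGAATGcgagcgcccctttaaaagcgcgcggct
AXL, chr19:41226516-41226575, plus strand: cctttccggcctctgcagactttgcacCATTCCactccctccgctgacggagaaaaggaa
AMOTL2, chr3:134374484-134374543, minus strand: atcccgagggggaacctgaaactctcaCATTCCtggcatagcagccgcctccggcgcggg
AJUBA, chr14:22976869-22976928, minus strand: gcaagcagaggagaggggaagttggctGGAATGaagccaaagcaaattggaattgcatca
YAP1, chr11:102110258-102110317, plus strand: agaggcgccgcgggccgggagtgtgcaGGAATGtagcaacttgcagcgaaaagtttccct

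Counted from the transcript start, the motif began at position -46 in THBS1, -69 in AMOTL2 and -59 in AJUBA. It lay further away in AXL, at position -212, and in YAP1, at -162. In AXL and AMOTL2 it read CATTCC along the gene, in the other promoters GGAATG. LATS2 held 1 copy at position 10, after its start, and neither promoter of WWTR1 held any. A motif of AP-1, TGANTCA (the same on both strands), which often lies near TEAD sites in enhancers, was in 0 of the 12 promoters and in 7.71% of all promoters. The CArG box bound by SRF was in 0 of the 12 and in 1.29% of all. No match says only that these letters are missing from the 300 bases searched.

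**Figure D1:**
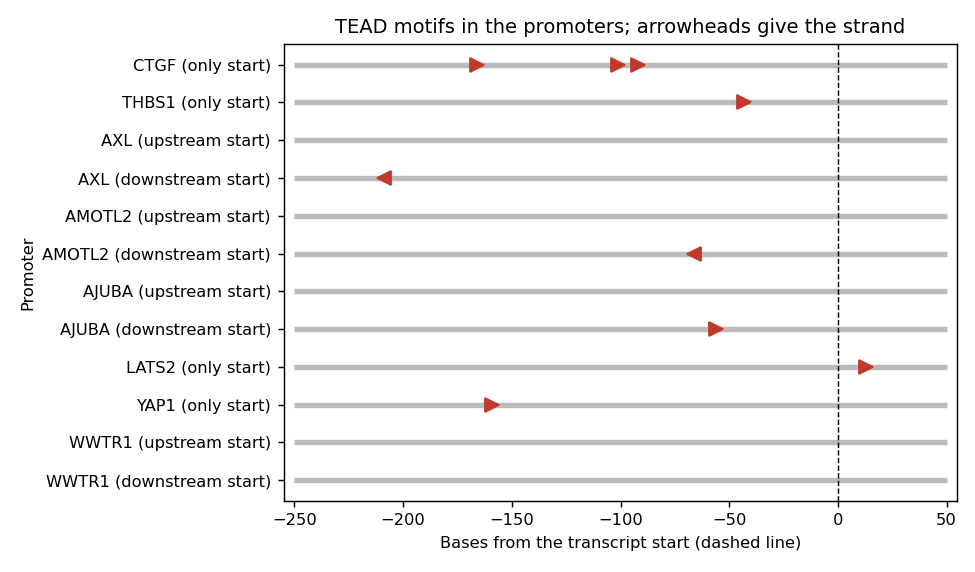
Positions of the TEAD motif GGAATG in the 12 promoters of 8 genes, in bases from the transcript start (dashed line); each grey bar is 1 promoter and each arrowhead 1 motif, pointing along its strand. CTGF has 3 motifs, and in AXL, AMOTL2 and AJUBA the motif lies before the downstream of the 2 starts.

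CYR61 and CTGF were the most abundant of the 10 genes, whereas THBS1, the other secreted target, was among the 3 least abundant. Per kilobase of merged exon in GENCODE 29, CYR61 was at 154.5 ± 17.5 CPM (SD over all 6 libraries), above 97.8% of the 15144 genes tested, and CTGF at 85.6 ± 11.4 CPM, above 96.0%. AXL followed at 50.3 ± 2.28 CPM per kilobase, then AMOTL2 at 45.3 ± 9.63, AJUBA at 29.3 ± 0.911, YAP1 at 19.5 ± 2.83, TEAD1 at 14.2 ± 1.70, THBS1 at 11.1 ± 1.14, LATS2 at 8.97 ± 0.411 and WWTR1 at 8.07 ± 0.348. Of the neighbours in this order, AXL and AMOTL2, YAP1 and TEAD1, TEAD1 and THBS1, and LATS2 and WWTR1 had ranges over the 6 libraries that overlapped, and the other neighbours did not. The least abundant, WWTR1, still lay above 65.0% of the genes tested. The deposited FPKM values, which rest on other gene lengths, put all 45 pairs of the genes in the same order.

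**Figure D2:**
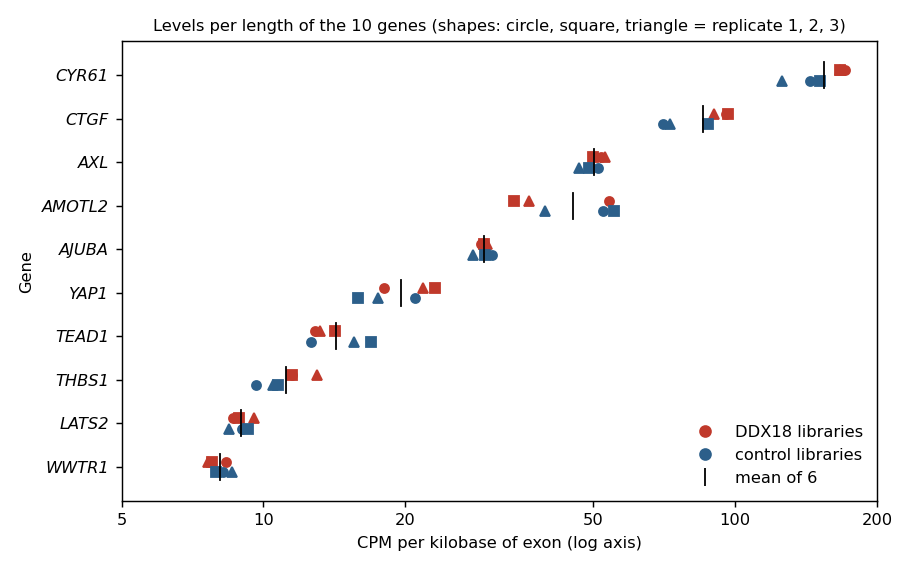
Level of the 10 genes in CPM per kilobase of merged exon on a log axis, with 1 point per library, red for DDX18 and blue for control, and a black line at the mean of the 6. CYR61 and CTGF lie at the top with means of 154.5 and 85.6, and WWTR1 at the bottom with 8.07.

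CYR61, CTGF and THBS1, the 3 secreted matricellular proteins, were higher in every DDX18 library than in any control library, with fitted folds between the groups of 1.16 to 1.22. In the other 7 genes the ranges of the groups overlapped. Among the 10 genes, 7 had a positive and 3 a negative log2 fold change, with a median of 0.05 (range -0.24 to 0.29), beside a median of -0.0008 over all genes tested. Of all genes tested, 49.8% had a positive value. Between libraries of a group, the median deviation of the 10 genes had an SD of 0.049, about as large as their median fold change. Without control replicate 3 the median was 0.007 and 5 of the 10 values were positive. Groups did not overlap in 3 of the 10 genes and in 11.5% of all genes tested. Of all 15144 genes tested, 8 (0.0528%) passed an adjusted p of 0.05 in edgeR's quasi-likelihood test, and none of the 10 was among them. Since the set was chosen with this comparison known, nothing is read from either count.

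CYR61 encodes a cysteine-rich protein of the extracellular matrix that binds integrins and is among the most widely used readouts of YAP. It measured 421.2, 409.8 and 409.6 CPM in DDX18 replicates 1, 2 and 3, and 354.7, 371.6 and 308.8 CPM in control replicates 1, 2 and 3. The 3 DDX18 libraries agreed closely with each other (coefficient of variation 1.61%, near the counting error of 1.28%), while the controls spread more (9.42%). The groups were 37.99 CPM apart at their nearest. The log2 fold change was 0.26 ± 0.08 (SE), or 1.20-fold. The gene (ENSG00000142871) spans chr1:85580761-85583962 on the plus strand of GRCh38 in 5 exons.

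CTGF, the connective tissue growth factor, is the closest relative of CYR61 in this set and a factor of scarring in pancreatic tumours. Its levels were 223.8, 226.7 and 210.9 CPM in DDX18 replicates 1, 2 and 3, and 165.0, 205.1 and 170.2 CPM in control replicates 1, 2 and 3. Control replicate 2 came within 5.81 CPM of the lowest DDX18 library, and the other 2 controls lay well below. The log2 fold change was 0.29 ± 0.09 (1.22-fold), the largest positive value of the 10, and without control replicate 2 it was 0.40. CTGF (ENSG00000118523) spans chr6:131948176-131951373 on the minus strand. An antisense gene, AL133346.1, overlaps 8.34% of its exon bases and held 56.0 counts on average, against 2560 to 3633 for CTGF.

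THBS1 encodes thrombospondin 1, a large matrix protein that activates latent TGF-β and binds CD47. It was at 105.1, 105.3 and 119.1 CPM with DDX18 against 88.3, 98.5 and 96.1 CPM in controls, in order of replicate. The groups were separated by 6.65 CPM, and DDX18 replicate 3 was the highest library. The log2 fold change was 0.22 ± 0.08 (1.16-fold), and 0.16 without DDX18 replicate 3. THBS1 (ENSG00000137801) spans chr15:39581079-39599466 on the plus strand.

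**Figure D3:**
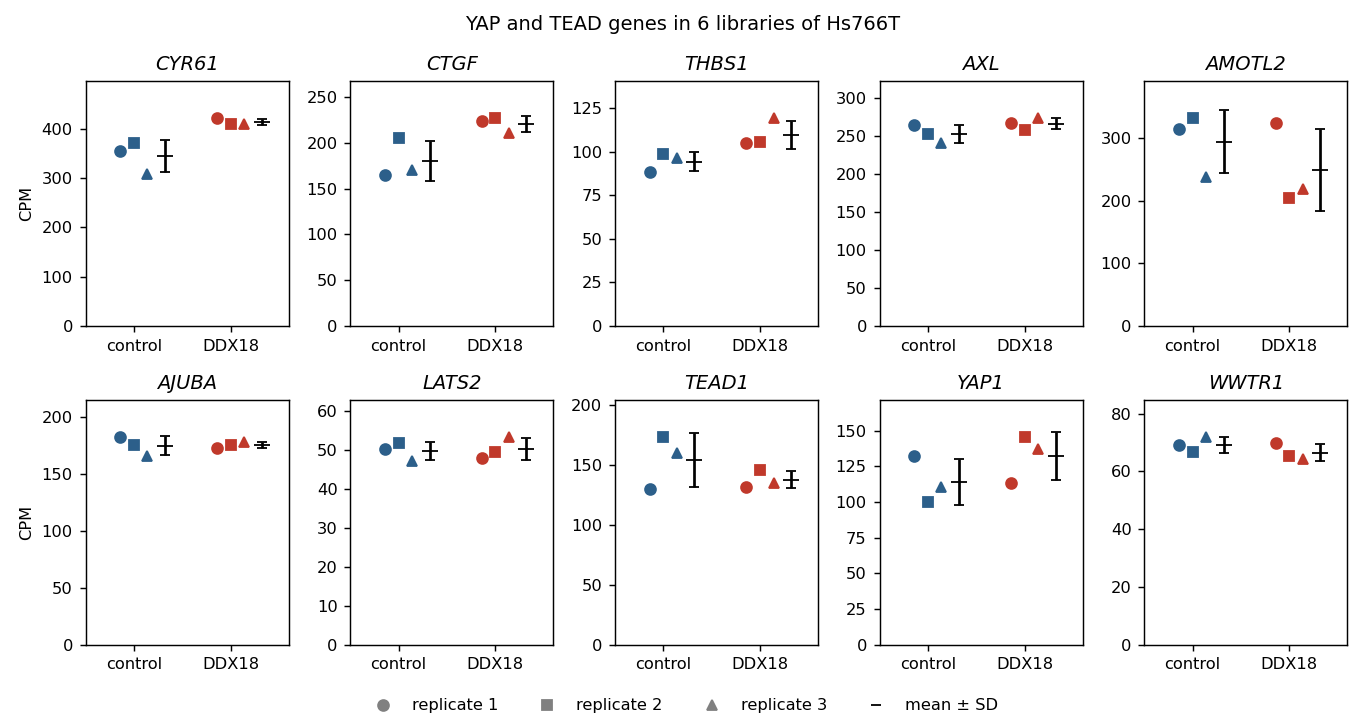
Level of each of the 10 genes in CPM in the 3 control and the 3 DDX18 libraries, with marker shape giving the replicate number and black bars the mean ± SD (n = 3); every axis starts at 0. CYR61, CTGF and THBS1 show groups that do not overlap, and AMOTL2 shows 3 libraries at 313.7 to 331.0 CPM and 3 at 203.4 to 237.2 CPM across both groups.

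AXL, a receptor tyrosine kinase whose activity has been tied to invasion and drug resistance, varied little between libraries. Its levels were 267.4, 257.7 and 272.8 CPM with DDX18 against 264.2, 252.4 and 240.1 CPM in controls. The groups overlapped, and the log2 fold change was 0.08 ± 0.06, or 0.038 without control replicate 3. AJUBA, a LIM-domain scaffold of cell junctions that inhibits LATS kinases, varied even less, and only 3.87% of the genes tested varied less within groups. It was at 173.1, 175.8 and 178.0 CPM with DDX18 against 182.9, 176.1 and 166.5 CPM in controls, with a log2 fold change of 0.004 ± 0.064. All 6 values of AJUBA lay within 1.10-fold of each other. AXL (ENSG00000167601) spans chr19:41219203-41261766 on the plus strand, and AJUBA (ENSG00000129474) chr14:22971174-22982642 on the minus strand.

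AMOTL2, a junctional scaffold of the angiomotin family that binds YAP and promotes its inhibition by LATS, had the largest spread within groups of the 10 genes. It was at 323.6, 203.4 and 219.0 CPM in DDX18 replicates 1, 2 and 3, and at 313.7, 331.0 and 237.2 CPM in control replicates 1, 2 and 3. High and low libraries thus occurred in both groups, 3 at 313.7 to 331.0 CPM and 3 at 203.4 to 237.2 CPM. The log2 fold change was -0.24 ± 0.19, and its size depended on single libraries. Without DDX18 replicate 1 it was -0.48. Leaving out DDX18 replicate 2 gave -0.12, and leaving out control replicate 3 gave -0.38. The within-group SD of log2 CPM was 0.31, larger than in 76.8% of the genes tested, whereas counting error at this depth amounts to 1.52%. AMOTL2 (ENSG00000114019) spans chr3:134355874-134375479 on the minus strand.

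Set against each gene's own mean over the 6 libraries on the log2 scale, all 6 targets were below their mean in control replicate 3. In DDX18 replicates 1 and 3, 5 of the 6 were above it, in DDX18 replicate 2 there were 4, and in control replicates 1 and 2 there were 3 each. CYR61 and CTGF shared the order of the groups but not of single libraries: among controls CYR61 was lowest in replicate 3 and CTGF in replicate 1.

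Of the coactivators, YAP1 outweighed its paralogue. Per kilobase, YAP1 made up 70.5% of the summed YAP1 and WWTR1 level on average (66.7% to 74.8% over the libraries). YAP1 was at 113.3, 145.6 and 137.3 CPM with DDX18 against 131.9, 99.9 and 110.1 CPM in controls, so that DDX18 replicate 1 lay among the controls and control replicate 1 among the DDX18 libraries. Its log2 fold change was 0.21 ± 0.13, between 0.13 and 0.33 when single libraries were left out. WWTR1 was at 69.9, 65.4 and 64.3 CPM with DDX18 against 69.02, 66.6 and 72.0 CPM in controls, with a log2 fold change of -0.06 ± 0.08. Leaving out DDX18 replicate 1 gave -0.10, and leaving out control replicate 3 gave -0.03. An antisense gene, WWTR1-AS1, covers 9.45% of the exon bases of WWTR1 but held 17.0 counts on average. YAP1 (ENSG00000137693) spans chr11:102110461-102233423 on the plus strand, and WWTR1 (ENSG00000018408) chr3:149517235-149736714 on the minus strand.

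TEAD1, the founding member of the TEAD factors, was at 132.1, 145.8 and 135.3 CPM with DDX18 against 129.8, 173.6 and 160.1 CPM in controls. Control replicate 1 was the lowest of all 6 libraries, while the other 2 controls were the highest. The log2 fold change was -0.17 ± 0.11. Leaving out control replicate 1 gave -0.28, and leaving out control replicate 2 gave -0.07. Control replicates 2 and 3, the highest in TEAD1, were the lowest in YAP1, whereas among the DDX18 libraries both genes were lowest in replicate 1 and highest in replicate 2. TEAD1 (ENSG00000187079) spans chr11:12674591-12944483 on the plus strand.

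LATS2, the kinase that phosphorylates YAP and TAZ, was close to equal in the groups. It was at 48.0, 49.5 and 53.3 CPM with DDX18 against 50.2, 51.8 and 47.2 CPM in controls, with a log2 fold change of 0.02 ± 0.08. LATS2 (ENSG00000150457) spans chr13:20973032-21061547 on the minus strand. Together with AJUBA, LATS2 had a fold change so near 0 that its sign turned when DDX18 replicate 3 or control replicate 3 was left out.

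Within most of their families the genes were the leading form in these cells. The shares that follow are of the family's summed level per kilobase, as means over the 6 libraries. CYR61 held 45.7% and CTGF 25.3% of the CCN family, and most of the rest, 28.4%, was WISP2 (now CCN5), which lacks the C-terminal module of the other CCN proteins. CYR61 took 47.6%, 46.3% and 46.9% in DDX18 replicates 1, 2 and 3 and 45.2%, 44.8% and 43.7% in the controls, a share computed from the same counts as its level. WISP2 took 25.3%, 26.4% and 27.3% in the DDX18 libraries and 32.5%, 28.9% and 30.4% in the controls. The ranges of this share were apart in the opposite direction, but its sum includes CYR61 and CTGF. The level of WISP2 itself overlapped between the groups, with a log2 fold change of -0.03. With the lengths behind the deposited FPKM, CTGF held 30.5% and WISP2 21.3% on average, which turns their order. THBS1 made up 72.6% of the thrombospondins, ahead of THBS3 at 25.2%. AXL made up 84.7% of the TAM receptors, with TYRO3 at 15.3% and MERTK at no more than 2 counts in any library. LATS2 provided 82.3% of the LATS level and LATS1 17.7%.

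Scaffolds showed the same picture of a single leading gene. AMOTL2 made up 77.5% of the angiomotins and AMOTL1 the remainder, and AMOT was at 0 counts in all 6 libraries. AJUBA made up 81.0% of its LIM family, ahead of LIMD1 at 15.4% and WTIP at 3.62%. TEAD1 was the exception. It had the most counts of the 4 TEAD genes (146.1 CPM on average against 73.6 CPM for TEAD4), but with its long exon sequence of 10279 bases its share per kilobase was the smallest, 16.4%, behind TEAD4 at 37.4%, TEAD2 at 24.7% and TEAD3 at 21.5%. With the lengths behind the deposited FPKM the share of TEAD1 was 18.2%, still the smallest, although TEAD3 then lay ahead of TEAD2 (29.2% and 22.4%).

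**Figure D4:**
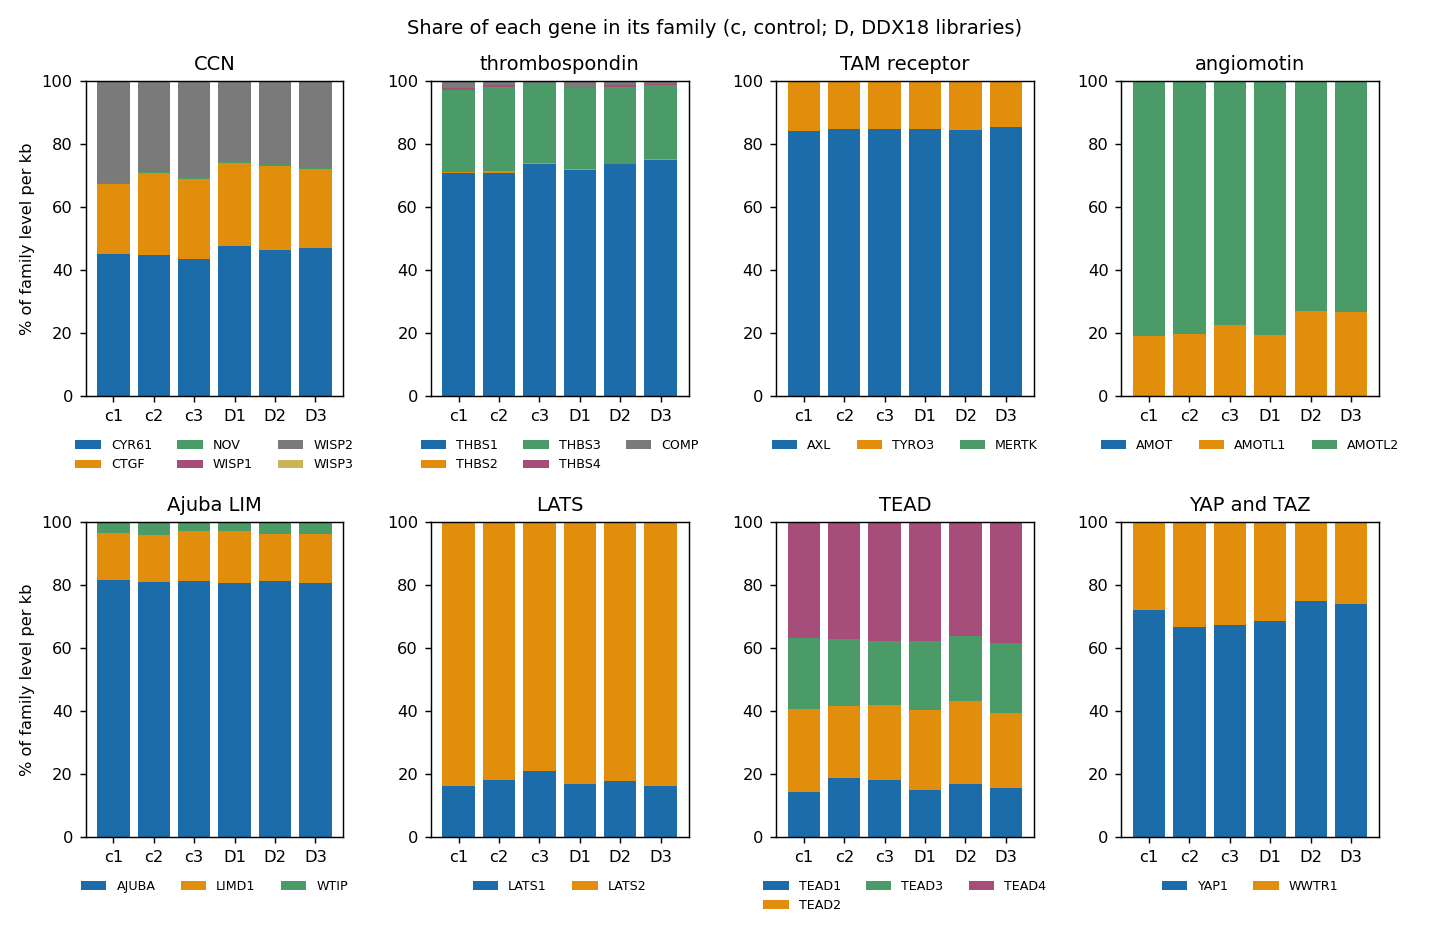
Share of each gene in the summed level per kilobase of its family, in percent, stacked for the control libraries (c1 to c3) and the DDX18 libraries (D1 to D3). CYR61, THBS1, AXL, AMOTL2, AJUBA, LATS2 and YAP1 have the largest share of their families in every library, while TEAD1 has the smallest of the 4 TEAD genes.

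Other genes of the pathway were examined in 5 lists holding 75 genes, of which 64 could be tested. None of the 64 was called by edgeR over all genes (1 had an unadjusted p under 0.05), and none by DESeq2 or limma-voom. Of all 15144 genes tested, edgeR called 0.0528%, and 5.69% had an unadjusted p under 0.05. DESeq2 called 40 genes in all. With so few calls over the whole table, nothing is read from their absence in the lists. Of the 64, 34 had a positive and 30 a negative log2 fold change. Groups did not overlap in 2 of the 19 Hippo kinases and scaffolds, and in 1 of the 17 other YAP targets. The same held for 1 of the 9 tested partners and paralogues, and for 0 genes of the junction and TEAD lists. Among all genes tested the share was 11.5%. Every adjusted p below is from edgeR's quasi-likelihood test with adjustment over all genes tested.

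The gene with the smallest p was GAS6, the secreted ligand that activates AXL. It was at 29.02, 28.9 and 28.5 CPM in the DDX18 libraries and 38.9, 37.96 and 37.4 CPM in the controls. Each group was tight and the groups did not overlap, with a log2 fold change of -0.40 ± 0.08, but the edgeR adjusted p over all genes was 0.485. A choice by smallest p favours tight and separate groups. GAS6 also held at most 618 counts in any library, fewer than LATS2, so its counting error was above the 3.53% of LATS2. The tightness is therefore not read as a trait of the groups. PROS1, the other TAM receptor ligand, was at 11.5 ± 1.07 and 13.0 ± 2.06 CPM with DDX18 and in controls. Among the 9 tested partners and paralogues the median log2 fold change was -0.03, with 4 positive and 5 negative. NOV (now CCN3) was at 4.97 ± 0.517 and 3.504 ± 1.31 CPM (adjusted p = 0.86). LRP1, an endocytic receptor that takes up thrombospondin and CTGF, was abundant at 527.1 ± 18.4 and 551.1 ± 20.6 CPM. WISP2 was at 470.7 ± 14.9 and 479.8 ± 41.2 CPM.

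All 17 of the other YAP targets could be tested, 11 with a positive and 6 with a negative log2 fold change and a median of 0.06. FOXF2, a forkhead factor of mesenchyme, had the smallest p, at 157.2 ± 6.40 CPM with DDX18 against 143.6 ± 3.22 CPM in controls (adjusted p = 0.86), and its groups did not overlap. MYOF, a membrane repair protein of the ferlin family, was at 331.7 ± 7.64 and 313.6 ± 11.05 CPM. FJX1 was at 60.6 ± 3.23 and 55.2 ± 6.06 CPM, and NUAK2, a kinase that feeds back on LATS, at 49.2 ± 2.65 and 54.4 ± 5.84 CPM. IGFBP3, which binds insulin-like growth factors and had the highest level per length of this list, was at 342.0 ± 85.9 and 337.7 ± 57.4 CPM. ANKRD1, a common YAP reporter gene, was barely expressed, at 1.93 ± 0.482 and 2.03 ± 0.886 CPM.

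Upstream of YAP, the 19 kinases and scaffolds of the Hippo cascade were all tested, and 8 had a positive and 11 a negative log2 fold change (median -0.03). MOB1B, a LATS activator, had the smallest p of them, at 6.28 ± 0.824 CPM with DDX18 against 8.04 ± 0.795 CPM in controls (adjusted p = 0.86), while its more abundant paralogue MOB1A was at 95.6 ± 5.30 and 97.6 ± 5.49 CPM. TAOK1, a kinase that activates MST, was at 25.5 ± 2.98 and 30.5 ± 3.70 CPM. STRN3, a subunit of the phosphatase complex that opposes MST, was at 9.90 ± 0.849 and 11.6 ± 0.968 CPM. WWC1, the scaffold also called KIBRA, was at 151.2 ± 9.79 and 146.2 ± 9.49 CPM, and WWC2 at 24.5 ± 4.59 and 20.7 ± 1.53 CPM.

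Of 17 genes of junctions, polarity and LIM scaffolds 14 were tested, 11 with a positive and 3 with a negative log2 fold change, and a median of 0.04. ZYX, a focal adhesion protein related to AJUBA, had the smallest p and the highest level per length, at 313.3 ± 60.0 CPM with DDX18 against 280.8 ± 6.72 CPM in controls (adjusted p = 0.924). SCRIB, a basolateral polarity scaffold, was at 226.6 ± 4.09 and 224.7 ± 18.4 CPM. MPP5 was at 128.8 ± 7.98 and 138.9 ± 15.6 CPM, PARD3 at 52.4 ± 4.03 and 49.9 ± 1.19 CPM, and the giant cadherin FAT4 at 3.56 ± 0.982 and 2.97 ± 0.570 CPM. The 5 tested TEAD factors and cofactors had 0 positive and 5 negative values, with a median of -0.03. VGLL3, which competes with YAP for TEAD, was at 8.87 ± 0.734 and 11.1 ± 1.73 CPM (adjusted p = 0.86). TEAD4 was at 72.4 ± 2.59 and 74.7 ± 1.495 CPM, TEAD3 at 56.0 ± 2.97 and 57.3 ± 4.05 CPM, TEAD2 at 63.7 ± 2.95 and 63.7 ± 4.96 CPM, and VGLL4, a TEAD repressor, at 37.1 ± 3.34 and 37.3 ± 1.06 CPM. VGLL1 and VGLL2 were at 0 counts in all libraries.

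**Figure D5:**
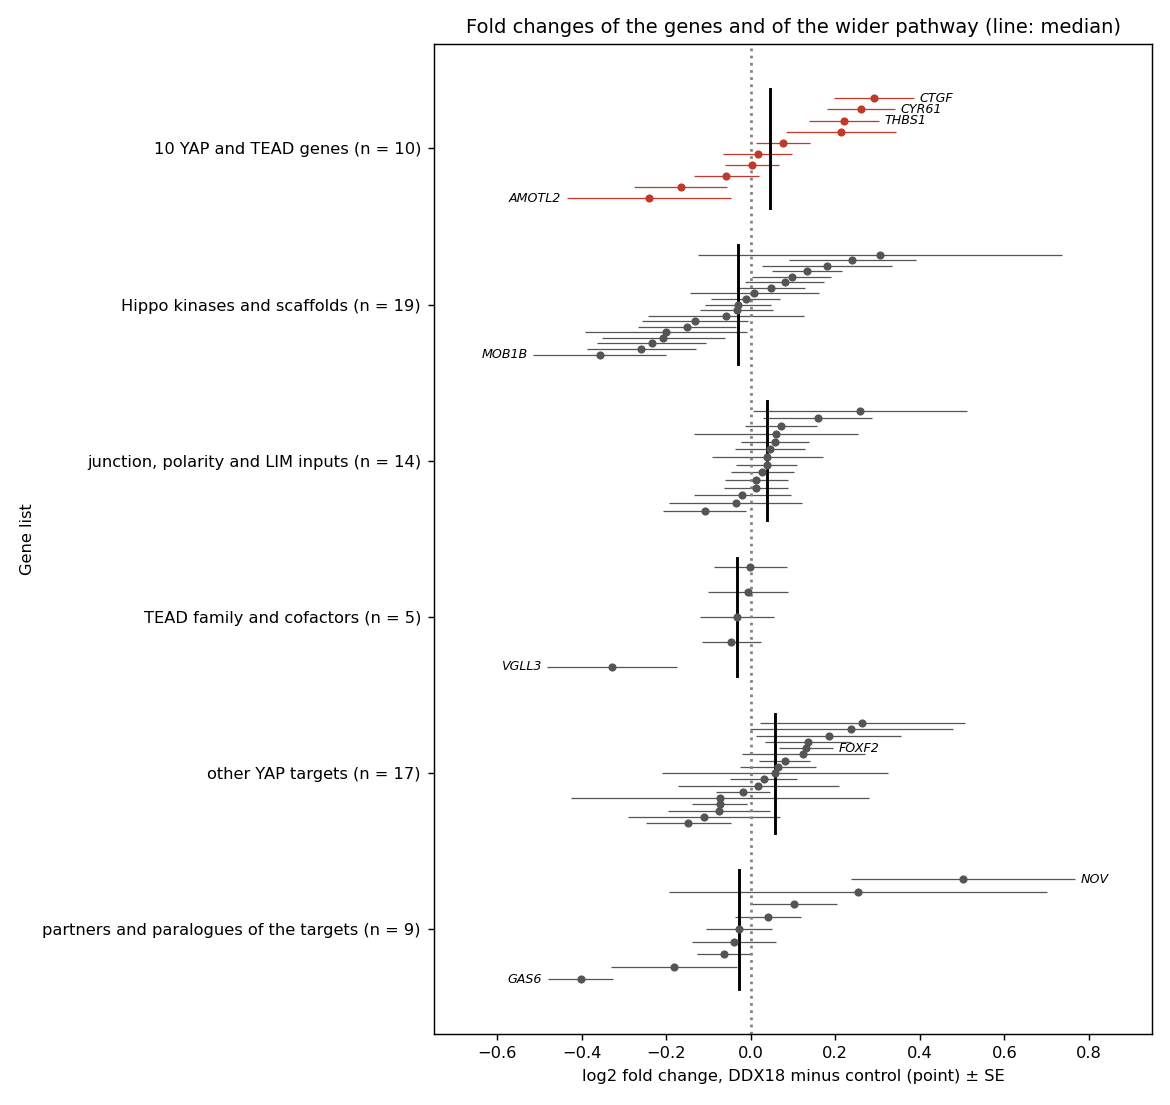
log2 fold change of DDX18 minus control (points) with its SE (bars) for the 10 genes, in red, and for the tested genes of the 5 other lists, in grey; black lines are list medians, between -0.03 and 0.06. CTGF, CYR61 and THBS1 lie at the right among the 10 and AMOTL2 at the left, and GAS6, at -0.40, has the lowest value of the wider pathway.

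Genes were ranked by how closely their log2 CPM, centred on its mean over the 6 libraries, followed that of CYR61. Of 9459 other genes with a mean of at least 10 CPM, CPTP came nearest, with a root-mean-square difference of 0.02 log2 units. It was followed by TWIST2, TPD52L1, GAS1 and B3GNT9, at 0.04 to 0.05. TWIST2, a mesenchymal transcription factor, was at 35.6, 33.8 and 35.4 CPM with DDX18 against 29.4, 29.5 and 24.6 CPM in controls. Its likeness to CYR61, with control replicate 3 lowest in both, is what the ranking selects for and is no separate result. CTGF ranked 143 by this measure, with a difference of 0.09, AXL 515 and THBS1 659. The measure also places genes that vary little rather near. LATS2 and AJUBA, close to equal in the groups, ranked 1525 and 1550, and AXL lay ahead of THBS1 although its groups overlapped. AMOTL2 was the farthest of the 10 from CYR61, at rank 8451. These ranks describe the 6 libraries only.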

How the data were processed

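RNA-seq of 6 libraries was used, 3 of Hs766T cells overexpressing DDX18 and 3 of controls. Values are raw counts per gene, deposited by the authors, beside FPKM columns, named so per the file headers; in the values, each FPKM equals the count over the library total and 1 length per gene. Library preparation used a SMARTER mRNA kit, per the labels' protocols. The sources used here do not name the aligner, the counter or the strand setting, and reads of overlapping genes may therefore not be separable. GRCm38 and mm10, both mouse, are the builds listed per the submitters' processing notes, but the rows are human Ensembl genes, and 97.6% of the 58039 found in GENCODE 29 have its GRCh38 start and end.

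The main test was edgeR's (4.0.16, R 4.3.3) quasi-likelihood test of DDX18 against control without covariates, after filterByExpr (15144 genes kept) and TMM, with Benjamini-Hochberg adjustment over all genes and a threshold of 0.05. Dividing a log2 fold change by the square root of its F gave the SE. CPM uses the TMM-scaled library sizes. The common biological coefficient of variation was 15.9%, and libraries of a group differed by more than sampling noise (chi-square over degrees of freedom 12.9 to 20.6). The procedure was tested on simulated counts, with folds larger than any fitted for the 10 genes, so differences of their size were not covered. The genes and lists were chosen with earlier results of these data known. Named are the 10 genes, DDX18, up to 4 genes of each list with the smallest p, up to 2 with the highest level per length, and the 5 nearest to CYR61; paralogues, ANKRD1 and cell type markers named beside these were chosen after their values were seen. Alternatives were other scalings, filters and tools (DESeq2 1.42.0, limma 3.58.1 with voom, or on log2 FPKM plus 1 or 0.1), a block for replicate number, and each library left out.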

Additional observations from a re-analysis of the deposited data

How the results depend on the processing

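Across 16 alternatives, none of the 64 pathway genes was called, where the main test called 0.0528% of all genes tested. All 160 values of the 10 genes stayed within 1 SD of the replicates. Leaving out 1 of 3 libraries can hardly exceed that limit, so nothing is read from this count. AMOTL2 ran from -0.48 to -0.12 when single libraries were left out. CYR61 (0.18 to 0.32), CTGF (0.23 to 0.40) and THBS1 (0.16 to 0.25) kept a positive log2 fold change in all 16. AXL and YAP1 stayed positive as well, and AMOTL2, TEAD1 and WWTR1 stayed negative. In CYR61, CTGF and THBS1 the groups did not overlap, so leaving out 1 library could hardly turn the sign, and nothing is read from this either. The number of the 10 genes with a positive value was 5 to 7, being 5 without DDX18 replicate 3 or control replicate 3, and their median ranged from 0.007, without control replicate 3, to 0.07. Over the whole table, 4 genes were called with no expression filter (2 higher, 2 lower), 40 with DESeq2 (18 higher, 22 lower), and 3 to 14 when a library was left out (2 to 7 higher, 1 to 7 lower), the 3 without control replicate 2 and the 14 without control replicate 1; the cause was not tested. The log2 fold change of DDX18 was 1.00 to 1.12 when a library was left out, and it missed the threshold when DDX18 replicate 2 (edgeR adjusted p = 0.0544) or control replicate 2 (0.0643) was the one left out. No shared effect of the replicate number was seen, as deviations from the group means of same-numbered libraries correlated at -0.09 to 0.02. This cannot show whether libraries of the same replicate number were prepared together. With that number as a replicate block 1 gene was called (1 higher, 0 lower) and DDX18 had 1.06 with an adjusted p of 0.153, at fewer residual degrees of freedom. The longer TEAD motif ACATTCC was in 3 of the 12 promoters instead of 7, and in 3.46% of all promoters. Counting error was not small beside the spread in every gene. In AJUBA it was 1.89%, against a coefficient of variation of 1.38% among the DDX18 libraries and 4.71% among the controls. In CYR61 it was 1.28% against 1.61% and 9.42%. In LATS2 it was 3.53% against 5.48% and 4.64%, and in WWTR1 3.03% against 4.46% and 3.87%, in the same order.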
